A study of Homo sapiens and Mus musculus with 21 samples.

Results

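Short peaks of RNA bound by DHX15 are described here: the peaks of a deposited RNA immunoprecipitation (RIP) list that are under 200 bases long and lie wholly inside at least 1 human gene span of RefSeq. The list holds 4499 peaks, of which 1785 are that short, and 1672 of these (93.7%) lay inside genes and are the members. The other 113 short peaks lay wholly or partly outside gene spans and were not followed. The members fell in 1710 genes, of which 1508 are protein-coding, 178 are long non-coding RNA genes and 24 are of other kinds. For comparison, the list also holds 1538 medium peaks (200 to under 2000 bases) in 1405 genes and 940 long peaks (2000 bases or more) in 858 genes. Length and gene span chose the members, so the lengths are a description and not a finding.

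All libraries used here came from CUTLL1, a human T cell acute lymphoblastic leukaemia (T-ALL) line. For RIP, RNA was recovered with a DHX15 antibody (2 libraries) or with IgG (1 library), beside 1 input library, and the authors summarised these as 1 peak list, so no peak has a value per library. For the knockdown, cells were infected with lentivirus carrying a hairpin against GFP (shGFP, the control) or 1 of 2 hairpins against DHX15 (shDHX15-1 and shDHX15-2), with 3 libraries each. For the drug, cells were given DMSO or 5 µM ciclopirox, with 3 libraries each. The single cell line limits every group as a model, and the labels do not say that replicates came from separate cultures. P-values therefore speak of the variation among the libraries at hand, which may have technical sources.

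DHX15 is a DEAH-box RNA helicase. It takes the spliceosome apart after splicing and acts in ribosome assembly, and some proteins with a G-patch motif switch on its activity. In RIP an antibody pulls a protein down with the RNA attached to it, and a peak is a stretch where reads from that RNA exceed a reference. Ciclopirox is a hydroxypyridone antifungal that binds iron.

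The position of a short peak is easiest to see at KIFC1, a minus-end-directed kinesin that gathers centrosomes, since it held the short peak with the lowest false discovery rate (FDR). That peak, chr6:33391810-33391860 on the plus strand, was 51 bases long with a fold enrichment of 3.54 and an FDR of 6.74e-77 in the authors' peak list. A second short peak of KIFC1, chr6:33391660-33391785, had a fold enrichment of 1.52. Both lay in the RefSeq promoter window of the gene, which runs from 250 bases before to 50 bases after a listed transcript start, here base 33391823. The window, chr6:33391573-33391872 on the plus strand of GRCh38.p14, is printed 5′ to 3′ with both peaks in capitals.
KIFC1 window: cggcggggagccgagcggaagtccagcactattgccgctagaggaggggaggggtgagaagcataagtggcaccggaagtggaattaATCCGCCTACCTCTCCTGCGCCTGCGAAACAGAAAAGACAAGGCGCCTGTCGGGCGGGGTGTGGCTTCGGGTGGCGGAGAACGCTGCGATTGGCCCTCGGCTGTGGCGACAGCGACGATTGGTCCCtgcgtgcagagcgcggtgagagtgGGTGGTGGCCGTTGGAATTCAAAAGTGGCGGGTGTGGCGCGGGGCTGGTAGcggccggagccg
The stronger peak spans the transcript start, and the weaker one ends before it.

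Across the list, 52 short peaks lay wholly inside one of 35116 such promoter windows. Of these, 31 were on the strand of the gene that owns the window and 21 were on the opposite strand, and 30 lay wholly upstream of that window's transcript start. In some cases the gene that owns the window is not the gene that holds the peak. These counts therefore do not place a peak against or upstream of its own gene. The peak chr12:15882393-15882493 was counted as opposite to and upstream of LOC102724146. It lay on the strand of STRAP, with its middle 56 bases after the STRAP start. The GC content of the 52 peaks had a median of 67.3% and ran from 49.0% to 88.2%. Their windows had a median of 65.5%, and all windows a median of 58.7%. Peaks of 5 further genes, all with their middle before the listed start, are printed as examples. They were chosen for the sequence and not by the rule for named genes, with their values known. Each is printed 5′ to 3′ on the strand of the peak, with the peak in capitals and flanking bases of its window in lower case.
LEF1, chr4:108166451-108166501, minus strand: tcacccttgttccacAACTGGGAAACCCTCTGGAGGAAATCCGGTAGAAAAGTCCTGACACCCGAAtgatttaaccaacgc
RELA, chr11:65662986-65663036, minus strand: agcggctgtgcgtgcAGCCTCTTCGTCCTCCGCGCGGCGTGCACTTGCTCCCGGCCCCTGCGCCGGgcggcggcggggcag
PAN2, chr12:56333881-56333956, minus strand: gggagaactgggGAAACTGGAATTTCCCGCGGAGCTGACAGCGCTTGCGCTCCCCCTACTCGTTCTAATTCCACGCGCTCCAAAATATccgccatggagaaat
IL32, chr16:3065621-3065721, plus strand: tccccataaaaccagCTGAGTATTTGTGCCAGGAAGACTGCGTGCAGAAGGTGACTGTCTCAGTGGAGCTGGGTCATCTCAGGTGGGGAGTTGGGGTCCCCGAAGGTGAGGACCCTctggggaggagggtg
HTRA2, chr2:74529769-74529939, minus strand, against the gene: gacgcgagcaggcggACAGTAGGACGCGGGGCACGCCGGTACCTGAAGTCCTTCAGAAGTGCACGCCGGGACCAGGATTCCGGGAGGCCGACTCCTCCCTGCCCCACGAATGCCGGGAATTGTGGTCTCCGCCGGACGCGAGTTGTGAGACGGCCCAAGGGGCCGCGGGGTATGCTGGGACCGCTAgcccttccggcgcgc
LEF1 encodes a transcription factor of T cell precursors, and the middle of its peak lay 175 bases before the listed start with a GC content of 51%. RELA encodes a subunit of NF-kappa-B, and its peak lay 95 bases before the start with a GC content of 76.5%. IL32 encodes a cytokine, and its peak lay 113 bases before the start. HTRA2 encodes a mitochondrial serine protease, and its peak, on the strand opposite the gene, had the third lowest FDR among the short peaks (fold enrichment 2.71, FDR 1.22e-44). These peaks had enrichments of 1.54 at LEF1, 1.65 at RELA, 1.63 at PAN2 and 1.53 at IL32.

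Short peaks also covered the mature sequences of 3 microRNAs that lie inside host genes. They are shown because a peak held each whole mature sequence, and seeds (bases 2 to 8) are in capitals. Peak lengths were stepped, as given below, and do not measure the size of a bound RNA.
hsa-miR-6789-5p: gUAGGGGCgucccgggcgcgcggg
hsa-miR-6789-3p: cGGCGCCCgugucuccuccag
hsa-miR-4785: aGAGUCGGcgacgccgccagc
The arms of MIR6789 lay in separate peaks of PLEKHJ1 on chromosome 19, minus strand. The peak chr19:2235878-2235978 held all 24 bases of the 5p arm with an enrichment of 1.5, and chr19:2235778-2235853 held all 21 bases of the 3p arm with an enrichment of 1.51. MIR4785 lay in RBMS1 on chromosome 2, where chr2:160407796-160407871 on the minus strand held all 21 bases with an enrichment of 1.54. The 3 seeds differ. The overlap places the peaks and does not say whether the bound RNA was the host transcript or the small RNA, which was not tested.

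The lengths of the short peaks were stepped. A length of 51 bases was held by 648 peaks (38.8%), 76 bases by 388 (23.2%) and 101 bases by 242 (14.5%), and 1597 of 1672 (95.5%) were 51 bases plus a multiple of 25. The median was 76 bases. Just inside the limit, at 199 bases, lay peaks of NUDT16L1, PPP1R37 and SASH1 with enrichments of 1.75, 1.69 and 1.65, and just outside it, at 200 bases, lay a peak of TMEM254 with 1.96.

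Median enrichment was close between the length classes. The authors' fold enrichment of the short peaks had a median of 1.64 and ran from 1.5 to 5.79, against medians of 1.63 for medium and 1.67 for long peaks. At least 2-fold enrichment was reached by 223 short peaks (13.3%). The FDR of the members ran from 6.74e-77 to 0.0249.

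Short peaks followed the strand of their gene in most cases, but less often than long ones did. Only peaks whose genes all have a known strand, and the same one, were counted, so peaks inside genes of both strands were left out. Of these, 1088 of 1180 short peaks were on the gene's strand (92.2%, exact 95% binomial interval 90.5 to 93.7, counting error only). The share was 94.2% (92.6 to 95.5) for medium peaks and 98.1% (96.8 to 99.0) for long peaks. The interval of the short peaks overlaps that of the medium peaks and lies below that of the long peaks. On the opposite strand lay 92 short peaks (7.8%). The share of short peaks on the gene's strand was also the ground for reading the coordinates as GRCh38, so it does not check that build.

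Within protein-coding genes, short peaks gathered at both ends, and at the 3′ end above all. Of 1259 short peaks inside exactly 1 protein-coding gene of known strand, 372 had their middle in the last decile of the gene span, the final 10% of its length (29.5%, exact 95% interval 27 to 32.2), where an even spread would put 10%. The first decile held 235 (18.7%, 16.5 to 20.9) and the ninth decile 153 (12.2%). The shares of the other deciles lay between 4.5% and 6.8%. Medium peaks had 21.4% in the last decile and 17.9% in the first, and long peaks 10.7% and 4.7%. The interval of the last decile is above those of medium (19.0 to 23.9) and long peaks (8.5 to 13.1), while the first decile of the short peaks overlaps that of the medium peaks (15.7 to 20.3). A peak wholly inside its gene cannot have its middle closer to an end than its own length allows, so by construction medium peaks (median length 614 bases) and long peaks are kept from the shortest distances, and part of these contrasts cannot be told apart from the length limits that define the classes. Exons, introns and untranslated regions were not used here.

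**Figure D1:**
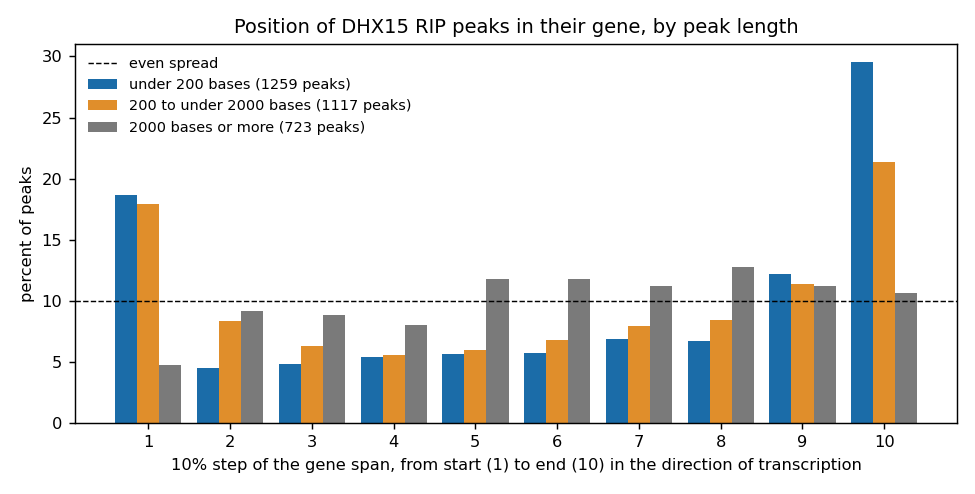
Share of peaks (percent, vertical axis) by decile of the gene span from 5′ to 3′ (horizontal axis) for short, medium and long peaks inside exactly 1 protein-coding gene of known strand; the dashed line is an even spread. The short peaks reach 29.5% in the last decile and 18.7% in the first.

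Distances in bases are given with the same limit of construction. Among 1130 short peaks on the strand of a protein-coding gene, 206 (18.2%) had their middle within 1000 bases of the gene's 3′ end, against 109 medium peaks (10.6%) and 0 long peaks. At the other end, 116 short peaks (10.3%) lay within 250 bases after the nearest listed transcript start, against 51 medium peaks (4.94%) and 1 long peak (0.14%). Within 1000 bases after a start the short and medium shares were 19.1% and 20.7%, and within 2000 bases the order was turned, with 23.2% and 30.1%. In the last decile the median distance of short peaks to the gene end was 856 bases, and in the first decile the median distance to the nearest listed transcript start was 208 bases. The 129 short peaks against the strand of their protein-coding gene had 23.3% in the first decile and 20.9% in the last. They outnumber the opposite-strand peaks counted above because peaks that also lie in a non-coding gene of the other strand are kept here.

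Short peaks stood more alone than longer ones. Another peak on the same strand lay within 1000 bases of 325 short peaks (19.4%), against 32.2% of medium and 28.2% of long peaks. Most genes with a short peak held 1 (1484 of 1710, 86.8%), 188 held 2 and 29 held 3. The 1209 genes (70.7%) whose peaks were all short are called short-only below, and the other 501 (29.3%) also held a medium or long peak.

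PIEZO1 and TOP3B held most short peaks, with 6 each. PIEZO1 encodes a mechanosensitive cation channel, and 2 of its short peaks were on its strand and 4 against it. Of those against it, chr16:88743691-88743791 and chr16:88743816-88743966 also lay inside a second gene span. The antisense gene PIEZO1-AS1 held 2 short peaks. PIEZO1 also held 5 medium and 2 long peaks. TOP3B, a topoisomerase that acts on DNA and RNA, had 3 on each strand beside 5 medium peaks. LASP1, an actin-binding adaptor, held 4 short peaks and no longer one. CLCN7, a lysosomal chloride transporter, DOT1L, a histone H3 methyltransferase, and GTPBP1, a GTPase, held 4 each and longer peaks too.

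The short peaks with the lowest FDR after KIFC1 lay in genes of many roles. LINC00620, a long non-coding RNA gene, had an enrichment of 2.55. A peak at chr17:58352824-58352874 on the plus strand lay on the strand of TSPOAP1-AS1 and against RNF43, an E3 ligase of the Wnt pathway, with an enrichment of 2.73. SEC31A, a coat protein of vesicles leaving the endoplasmic reticulum, had 2.13, and its peak lay 261 bases after the nearest start. CNOT3, a subunit of the CCR4-NOT deadenylase, had 2.37 against its strand, 471 bases from its 3′ end. Peaks of TMC6, a transmembrane channel-like protein, and of MXD1, a MAX partner that opposes MYC, lay in the last decile of their genes with 2.24 and 2.32. The MXD1 peak is also inside ASPRV1, a protease gene on the opposite strand. The remaining peaks of the first 12 were in ZDHHC4, a palmitoyltransferase (2.66), CACNB2, a calcium channel subunit, and its antisense gene CACNB2-AS1 (2.62), ANKLE1, a nuclease (2.32), and TPRG1L, a synaptic protein (2.63).

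Gene groups differed in how many members held a short peak. Over all 12000 genes tested in the knockdown and matched to a RefSeq span, 1438 (12%) held one. Among amino acid transporters 6 of 17 did, among chromatin and histone lysine enzymes 13 of 45, among factors of nonsense-mediated decay and the exon junction 5 of 19, and among mTORC1 and amino acid sensing genes 9 of 38. Among G-patch proteins, a family that includes activators of DHX15, 5 of 23 did. So did 4 of 20 cleavage and polyadenylation factors and 6 of 33 mitosis genes and kinesins. At the low end, 1 of 44 core spliceosome and DEAH helicase genes held one (DHX8, a helicase that releases spliced mRNA), 2 of 35 ribosome biogenesis factors and 1 of 22 p53 targets. The lists do not hold every gene of a kind. SNRNP40, of the spliceosome, and MDN1 and URB2, of ribosome assembly, held short peaks and were not in these lists. The low counts therefore speak of the listed genes only. These counts are a description, and no list was tested.

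The knockdown was checked first. DHX15, which held no listed peak, had 42.8, 44.1 and 43.2 RPKM (reads per kilobase of gene and 1e+06 reads) in shGFP, 17.1, 17.3 and 16.5 with shDHX15-1, and 16.1, 16.5 and 16.8 with shDHX15-2. Every hairpin library lay below every control, with log2 fold changes of -1.30 ± 0.025 and -1.34 ± 0.025 (SE) and adjusted p of 1.1e-09 and 1.8e-09 in limma. With ciclopirox, DHX15 fell by 0.74 on the log2 scale (SE 0.092, limma adjusted p = 8.7e-05), from 14498, 16688 and 16311 to 9218, 8967 and 10216 normalised counts. Recovered library totals were 59702150 to 62633707 reads in the knockdown and 32451469 to 37177509 in the drug experiment. All 9 T-ALL markers looked at were at or above 1 RPKM, and of the B cell markers CD79A was at 24.4 and CD79B at 2.57 RPKM. In bulk RNA, fewer cells of a kind and less RNA per cell cannot be told apart.

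Genes with a short peak rose somewhat more often than genes at large when DHX15 was knocked down, and the share that fell was close to that of genes at large. Of the 1710 genes, 1545 were in the RPKM table and 1438 passed the filter of at least 1 RPKM in at least 3 libraries, while 107 did not. A gene was called when limma gave an adjusted p under 0.05 with both hairpins in the same direction. By that rule 482 members (33.5%) were higher, against a background of 28.8% of 15022 genes, and 301 (20.9%) were lower, against 20.4%. Of the 15022 genes, 12000 matched a RefSeq span and so could have been members, and of these 29.7% were higher and 22.0% lower. The median log2 fold change was 0.08 for the members and 0.06 for all genes, as the mean of both hairpins. The hairpins share the control libraries, and their medians for the members were 0.12 with shDHX15-1 and 0.03 with shDHX15-2.

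The balance of rises and falls rests on the scaling of the libraries. When each library was centred on its median gene, 380 members were called higher and 395 lower, so the share of calls that were rises went from 61.6% to 49.0%, and over all genes from 58.5% to 44.5%. The members then rose in 26.4% of cases against 21.7% of all genes and fell in 27.5% against 27.1%. The excess of rises over the background was thus of like size under both scalings, and no direction in absolute terms is given for the group.

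By count, the excess of rises was in the genes that also hold a longer peak, a difference that is described and was not tested. Of the 461 tested genes with a short and a longer peak, 195 (42.3%) were higher and 83 (18.0%) lower, with a median of 0.15. Of the 977 short-only genes, 287 (29.4%) were higher and 218 (22.3%) lower, with a median of 0.05. Genes with no listed peak had 27.9% higher and 23.0% lower, with a median of 0.03 over 9337 genes. The share of rises of the short-only genes was near those of all genes tested (28.8%) and of all matched genes (29.7%). Genes with medium peaks had 39.3% higher and 17.5% lower, and genes with long peaks 45.6% and 14.4%. After centring, 22.3% of the short-only genes and 35.1% of the genes with a longer peak were higher.

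**Figure D2:**
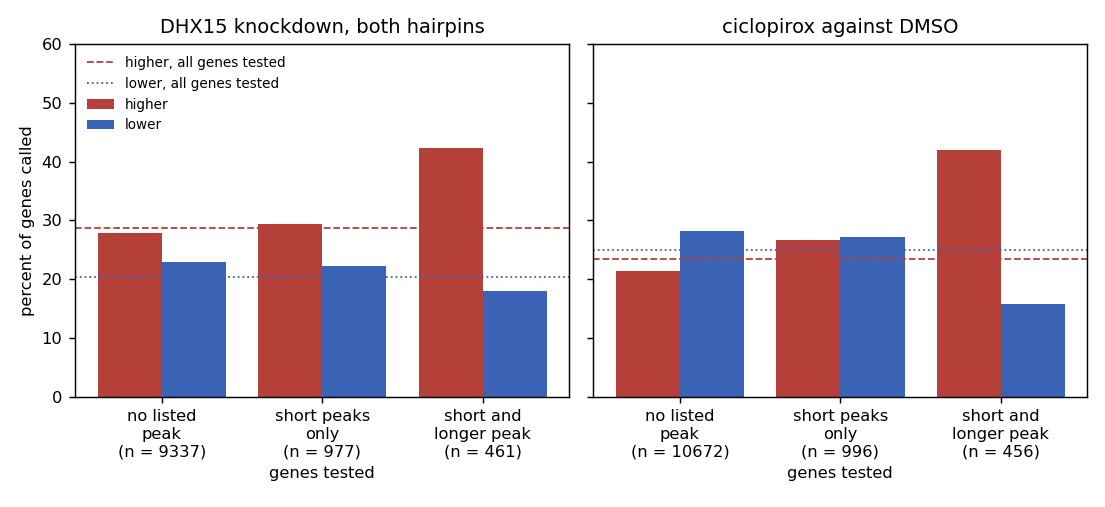
Percent of tested genes called higher or lower (vertical axis, bars) in the knockdown with both hairpins and with ciclopirox, for genes with no listed peak, short-only genes and genes with a short and a longer peak; lines mark all genes tested. Short-only genes stand near all genes (29.4% against 28.8% higher in the knockdown), and genes with a short and a longer peak reach 42.3%.

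Gene length and expression were set beside these counts. The median span was 27.6 kb for short-only genes, 27 kb for genes with a short and a longer peak and 25.6 kb for genes with no peak. In quartiles of all matched genes by span, the excess of rises was absent in the shortest, up to 9.21 kb. There 22.1% of members were higher and 26.4% lower, against 24.7% and 20.6% of all matched genes. In the longer quartiles 36.3%, 36.2% and 35.5% of members were higher, against 32.1%, 30.8% and 31.3%. Genes with a short and a longer peak had 23.2%, 48.3%, 40.8% and 48.6% higher, from the shortest quartile to the longest. In quartiles of all tested genes by mean RPKM, divided at 3.01, 7.07 and 15.4 RPKM, members were higher in 40.8%, 37.1%, 29.9% and 28.5% of cases from the lowest to the highest quartile, against 28.6%, 33.5%, 29.5% and 23.4% of all genes. Falls went the other way, with 9.23%, 16.4%, 25.1% and 29.7% of members against 9.42%, 14.4%, 22.7% and 35.2% of all genes. In the lowest quartile the members exceeded all genes by the widest margin, and there 260 members were tested. All genes in these RPKM quartiles take in those that matched no RefSeq span and could not be members. Matched genes alone were not set in these quartiles. The part of expression and gene length in the counts was not tested.

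**Figure D3:**
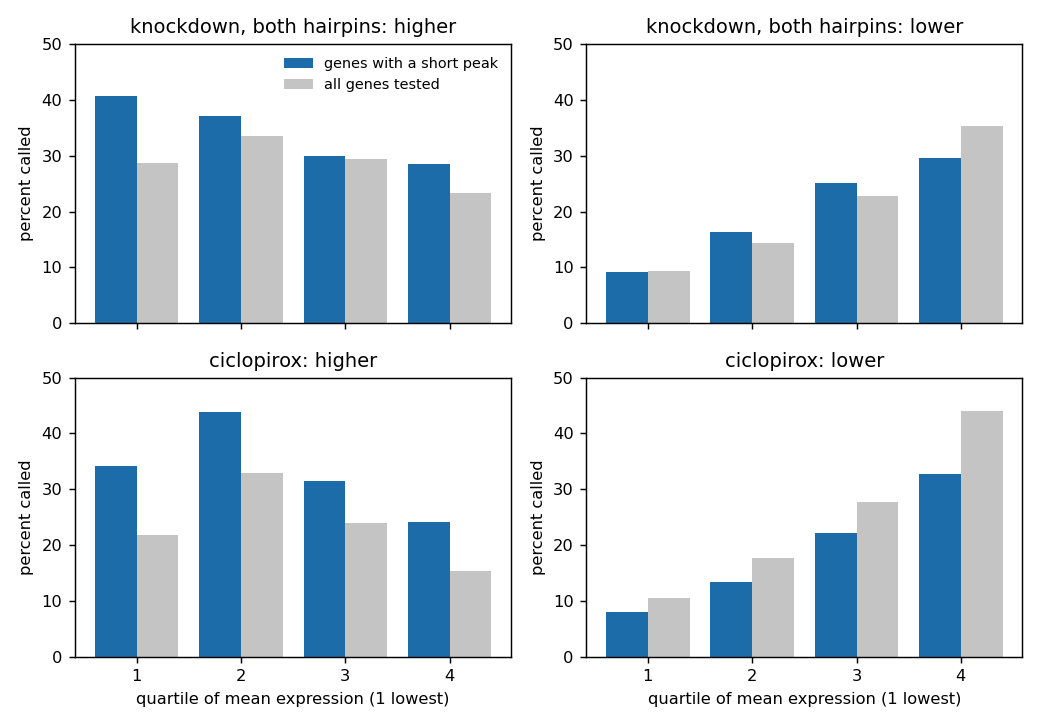
Percent of tested genes called higher and called lower (vertical axes) in each quartile of mean expression (horizontal axis, lowest to highest) for genes with a short peak and for all genes tested, in the knockdown and with ciclopirox. In the knockdown 40.8% of members and 28.6% of all genes in the lowest quartile are higher.

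The shares were close between positions of the peak in the gene, and their differences were not tested. Genes with a short peak in the first decile had 36.8% higher and 22.1% lower (190 genes), those with one in the last decile 33.1% and 21.4% (308), and those with one in between 34.1% and 19.4% (499). Genes with a peak against their strand had 33.1% and 19.3%. Long non-coding RNA genes had 14 of 45 higher and 6 lower.

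The hairpins themselves differed at most genes. A difference between shDHX15-2 and shDHX15-1 was called at 980 members (68.2%), against 61.1% of all genes, and 92 members (6.4%) were called in opposite directions, against 5.47%. A change of at least 2-fold with both hairpins was rare: 3 members rose (0.209%, background 0.499%) and 2 fell (0.139%, background 0.233%).

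The largest rises with both hairpins were led by CD244, a receptor of the SLAM family on lymphocytes. Its level was 5.61, 5.24 and 4.98 RPKM in shGFP, 16.4, 16.8 and 17.1 with shDHX15-1, and 35.3, 37.2 and 36.3 with shDHX15-2. The 3 groups did not overlap, and the second hairpin gave the higher level (log2 fold changes 1.5 ± 0.038 and 2.57 ± 0.038, limma adjusted p = 4.1e-09 and 4e-10).

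MICALL2, a Rab effector of cell junctions, went from 0.181, 0.178 and 0.222 RPKM to 1.71, 1.82 and 1.62 with shDHX15-1 and 1.64, 1.61 and 1.54 with shDHX15-2. Control values were under the filter of 1 RPKM, so the fitted changes of 1.19 and 1.12 on the log2(RPKM + 1) scale understate the ratio. KCNAB2, a potassium channel subunit, went from 16.2, 16.9 and 16.8 RPKM to 35.2, 33.4 and 34.9 and to 35.5, 35.6 and 36.0 (1.01 ± 0.025 and 1.06 ± 0.025). OGA, the enzyme that removes O-GlcNAc from proteins, went from 11, 11.4 and 12.3 RPKM to 23.4, 23.9 and 24.0 and to 23.1, 23.2 and 22.9. In all of these genes every hairpin library exceeded every control library. The other rises of the named set were PIK3R6, a regulatory subunit of PI3-kinase gamma (1.33 and 0.97), TRAF1, an adaptor of TNF receptors (1.08 and 0.86, with controls of 0.802, 0.768 and 0.661 RPKM, also under the filter), KAT2B, a histone acetyltransferase (0.84 and 1.12), and ARMH1 (0.78 and 0.74).

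The largest falls took in TRARG1, SLC7A5, KCNK1, PTPRU, STRAP, BATF3, CTU2 and SLC27A4. SLC7A5, the transporter of large neutral amino acids, went from 89.9, 84.1 and 88.4 RPKM in shGFP to 35.8, 36.2 and 35.7 with shDHX15-1 and 42.4, 42.3 and 41.4 with shDHX15-2 (log2 fold changes -1.26 ± 0.025 and -1.04 ± 0.025, limma adjusted p = 1.3e-09 and 6.8e-09). Its hairpin libraries all lay below its controls. STRAP, a WD-repeat protein of the SMN complex, went from 53.8, 52.0 and 51.8 RPKM to 27.1, 28.5 and 28.6 and to 25.8, 25.9 and 29.2 (-0.88 ± 0.045 and -0.94 ± 0.045). CTU2, which thiolates transfer RNAs, went from 6.88, 6.74 and 6.62 RPKM to 2.37, 2.02 and 2.39 and to 3.33, 3.32 and 3.71 (-1.25 ± 0.053 and -0.80 ± 0.053). PTPRU, a receptor tyrosine phosphatase, fell further with the second hairpin: 13.4, 13.1 and 14 RPKM became 6.27, 6.07 and 6.45 and then 3.10, 2.88 and 3.07. TRARG1, a regulator of glucose transporter trafficking, changed by -1.31 and -1.19, KCNK1, a potassium channel, by -1.0 with each hairpin, BATF3, a transcription factor, by -1.07 and -0.82, and SLC27A4, a fatty acid transporter, by -1.05 and -0.76. Of these 8 genes only SLC27A4 held a longer peak, while all 8 rises but OGA did. That contrast was seen after the genes were named and was not tested.

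**Figure D4:**
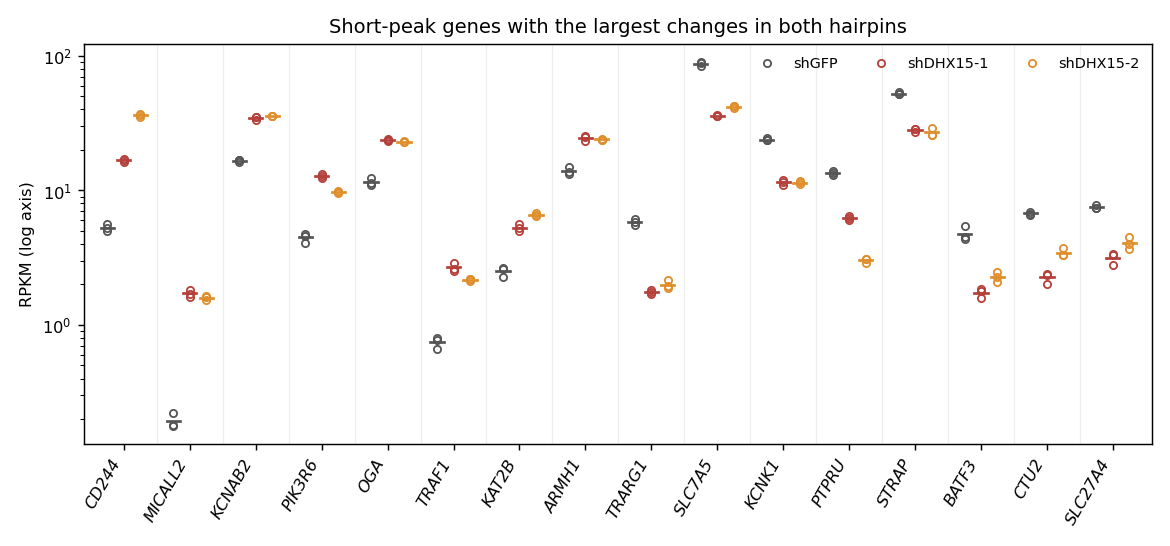
Level (RPKM, vertical log axis) in each of the 9 libraries for the 8 largest rises and the 8 largest falls among genes with a short peak; each point is a library and each dash a group mean. Hairpin libraries and controls do not overlap in any of these genes. They were chosen for large called changes, so the separation is not a further result.

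KIFC1, the gene of the short peak with the lowest FDR, rose by little. It was at 51.3, 49.8 and 51.2 RPKM in shGFP, 65.2, 65.6 and 65.7 with shDHX15-1 and 57.4, 58.5 and 56.6 with shDHX15-2, with no overlap between groups (0.36 ± 0.019 and 0.18 ± 0.019, limma adjusted p = 3e-07 and 4.6e-05). Of the other genes with the lowest FDR, TMC6 (0.55 and 0.39) and ZDHHC4 (0.22 and 0.38) rose, and TSPOAP1-AS1 (-0.29 and -0.17), CNOT3 (-0.16 and -0.20) and ANKLE1 (-0.60 and -0.13) fell. HTRA2, RNF43, SEC31A, MXD1, ASPRV1 and TPRG1L were not called with both hairpins. CACNB2 was under the filter, and LINC00620 and CACNB2-AS1 were not matched.

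Among genes with many short peaks, PIEZO1 rose (0.20 and 0.09) and TOP3B fell (-0.23 and -0.33), while CLCN7, DOT1L and GTPBP1 rose with shDHX15-1 (0.30, 0.26 and 0.32) and had 0.04, 0.05 and 0.00 with shDHX15-2. The difference between hairpins was called for these 3 genes (limma adjusted p = 0.002, 0.0011 and 3.3e-05). Of the genes whose promoter peaks are printed above, PAN2, a subunit of a poly(A) nuclease, and IL32 rose, with mean log2 fold changes of 0.57 and 0.84, and LEF1 and RELA fell, by 0.16 and 0.10 on the log2 scale. Of the hosts of the microRNAs, PLEKHJ1 fell (mean log2 fold change -0.19) and RBMS1 rose (0.27).

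By pathway, the members with short peaks moved in both directions. Of the 6 amino acid transporters 4 fell, and over the whole list 12 of 17 fell. The 4 were SLC7A5, SLC7A6 (-0.33 and -0.15), SLC38A7 (-0.12 and -0.39) and SLC38A2 (-0.37 and -0.42), the last of which is outside the rule for named genes and is named to complete the count. SLC1A4, a carrier of small neutral amino acids, rose with shDHX15-1 (0.19) and fell with shDHX15-2 (-0.12). Of the 6 mitosis genes 4 rose, among them KIF18B (0.23 and 0.19) and KIF22 (0.31 and 0.08), both kinesins. Over that whole list 12 of 33 rose and 7 fell. Of the 13 chromatin enzymes 4 rose and 2 fell, and over the whole list of 45 genes 13 rose and 4 fell, shares that are close for the rises. The histone methyltransferases KMT2C (0.46 and 0.23) and KMT2B (0.36 and 0.13) and, outside the rule for named genes, CREBBP (0.26 and 0.21) and KDM2A (0.44 and 0.13) rose. SETD1B (-0.15 and -0.18) and SETD1A (-0.33 and -0.33), the latter also outside the rule, fell.

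Genes of RNA processing with short peaks also split. The G-patch protein RBM5, a splicing regulator, rose (0.75 and 0.49), GPATCH4 fell (-1.05 and -0.39), and NKRF and TFIP11, both known partners of DHX15, were not called with both hairpins. SRSF5, an SR splicing factor, rose from 50.5, 51.1 and 51.4 RPKM to 72.0, 73.0 and 72.3 and to 69.4, 68.1 and 68.7 (0.50 ± 0.016 and 0.42 ± 0.016). SRSF2, with 3 short peaks, went from 224, 224 and 228 RPKM to 200, 200 and 200 with shDHX15-1 and to 234, 238 and 238 with shDHX15-2, so the hairpins moved it in opposite directions. The ribosome assembly factors NOP14 (-0.58 and -0.20) and DDX51 (-0.37 and -0.33) fell, in a list where 31 of 35 fell. SEC13, a subunit of GATOR2 and of vesicle coats, fell (-0.58 and -0.54). Of the 4 cleavage factors CPSF4 (0.38 and 0.19) and CPSF1 (0.38 and 0.07) rose and SYMPK fell (-0.17 and -0.34), and over the whole list of 20 genes 6 rose and 3 fell.

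Of the 5 ribosomal protein genes only RPL10 was called with both hairpins in the same direction, while RPS14 and RPS19 were called in opposite directions. RPL10 went from 168, 173 and 154 RPKM to 183, 177 and 183 and to 222, 234 and 230 (0.14 ± 0.041 and 0.47 ± 0.041), and the call was lost with DESeq2, with edgeR and after centring. Ribosomal protein genes have near-identical copies, among which the authors' counting could split reads. The call of CPSF1 (0.38 and 0.07) was lost in 12 of 17 other settings, that of CLK3, a splicing kinase (0.25 and 0.11), after centring and after quantile normalisation, and that of KIF22 with DESeq2 and after centring. The call of SLC38A7 was lost without shDHX15-1 replicate 2 or shGFP replicate 1, and that of ANKLE1 without shDHX15-2 replicate 3 or shGFP replicate 3. The strand setting of the counting is not given in the sources used here, so reads of overlapping genes on opposite strands cannot be told apart.

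Ciclopirox gave genes with short peaks a larger share of rises than genes at large. Of the 1710 genes, 1486 were in the table of normalised counts and 1452 passed the filter of 10 counts in at least 3 libraries. In limma 457 members (31.5%) were higher, against 23.5% of 16825 genes, and 343 (23.6%) were lower, against 25%. Of the 13406 genes that matched a RefSeq span, 24.3% were higher and 26.6% lower. The median log2 fold change was 0.08 for the members and -0.02 for all genes. Centring on the median gene left 378 higher and 422 lower, so the share of calls that were rises went from 57.1% to 47.3%, and over all genes from 48.5% to 40.1%. Under that scaling 26.0% of members and 19.9% of all genes were higher. Quantile normalisation gave 526 members higher (36.2%) and 259 lower (17.8%), against 23.4% and 23.9% of all genes.

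As in the knockdown, genes with a longer peak as well stood apart from short-only genes. Of 456 such genes 191 (41.9%) were higher and 72 (15.8%) lower, with a median of 0.22. Of 996 short-only genes 266 (26.7%) were higher and 271 (27.2%) lower, with a median of 0.01. Genes with no listed peak had 21.4% higher and 28.2% lower, with a median of -0.06 over 10672 genes. The short-only genes thus lay between the genes with no peak and the genes with a longer peak. Genes with medium peaks had 40.6% higher, and those with long peaks 43.9%.

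In every quartile of mean expression, divided at 101, 722 and 2186 normalised counts, members were higher more often and lower less often than all genes. From the lowest to the highest quartile the shares higher were 34.1%, 43.9%, 31.5% and 24.2% for members and 21.7%, 33.0%, 24.0% and 15.3% for all genes. The shares lower were 7.95%, 13.5%, 22.2% and 32.8% against 10.5%, 17.7%, 27.8% and 43.9%. Here too, all genes take in those that matched no RefSeq span and could not be members. By position, genes with a short peak in the first decile had 29.3% higher and 30.4% lower, those with one in the last decile 29.2% and 21.8%, and those with one in between 34.2% and 22.9%. The share of falls was highest for the first decile, and differences by position were not tested.

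The largest rises with ciclopirox were led by PFKFB4, CDKN1A and ATF3. PFKFB4, an enzyme that sets the level of a glycolysis activator and a hypoxia gene, went from 113, 124 and 105 to 2545, 2554 and 2329 normalised counts (log2 fold change 4.43 ± 0.12, limma adjusted p = 6.1e-09). CDKN1A, the p53 target that inhibits cyclin-dependent kinases, went from 263, 230 and 212 to 4521, 4569 and 4066 (4.22 ± 0.12). ATF3, a transcription factor induced by stress, went from 309, 319 and 323 to 4585, 4511 and 4365 (3.82 ± 0.097). In each of the 3 genes all treated libraries lay far above all controls.

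The other 5 rises of the named set were ABHD4, a lipid hydrolase (3.34 ± 0.16), SLC7A3, a carrier of cationic amino acids (2.98 ± 0.19), SFXN3, a mitochondrial serine transporter (2.64 ± 0.22), PTP4A3, a phosphatase (2.58 ± 0.18), and MTURN (2.57 ± 0.15). In the knockdown ABHD4, SLC7A3, PTP4A3 and MTURN were also called higher with both hairpins. CDKN1A and PFKFB4 rose with shDHX15-1 (0.58 and 1.48) and had -0.01 and 0.10 with shDHX15-2, and the hairpins differed (limma adjusted p = 5.9e-07 and 5.2e-08). PFKFB4, not called with both hairpins here, was called with a pseudocount of 0.1 and with the replicate block. It was also called without shDHX15-2 replicate 1 or shGFP replicate 2.

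The largest falls with ciclopirox took in MDN1, CTU2 and CKS2, for which each library is given. MDN1, the AAA ATPase that matures the large ribosomal subunit, went from 5915, 8737 and 9159 to 2168, 2749 and 2886 normalised counts (-1.59 ± 0.16, limma adjusted p = 2.5e-05). CTU2 went from 1712, 1215 and 1093 to 423, 473 and 400 (-1.61 ± 0.16). CKS2, a partner of cyclin-dependent kinases, went from 5684, 4461 and 4446 to 1852, 1778 and 1314 (-1.57 ± 0.15). Control libraries spread widely in these genes, and still no treated library reached a control. The others were PYCR3, an enzyme of proline synthesis (-1.82), MEX3A, an RNA-binding protein (-1.52), TWNK, the mitochondrial DNA helicase (-1.43), RAG1, the recombinase of antigen receptor genes (-1.41), and URB2, a ribosome biogenesis factor (-1.41). In the knockdown CTU2, MDN1, CKS2, MEX3A and URB2 also fell with both hairpins, and PYCR3 did not.

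**Figure D5:**
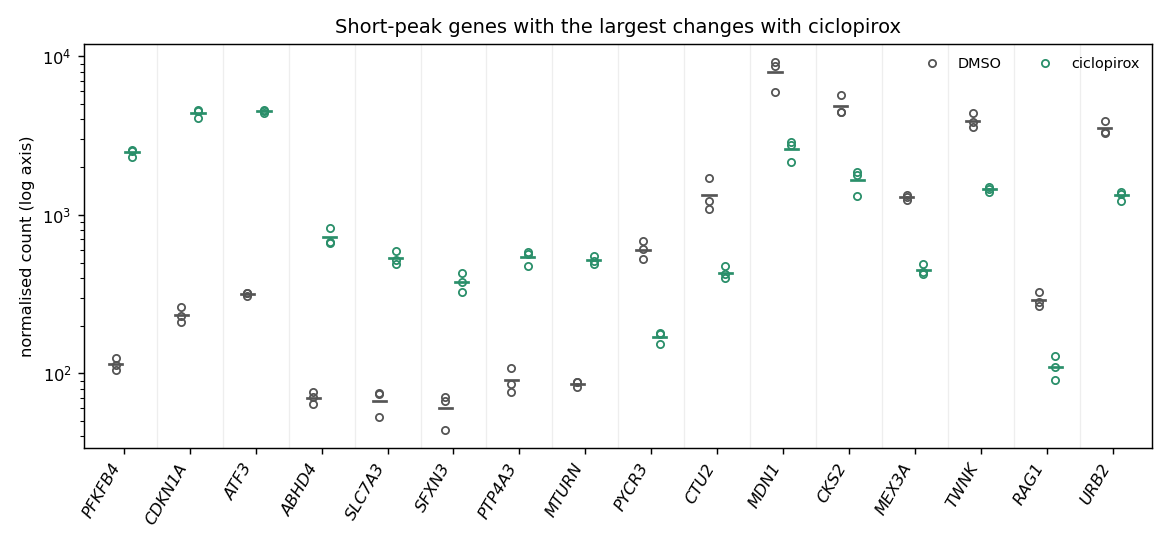
Level (normalised count, vertical log axis) in each of the 6 libraries for the 8 largest rises and the 8 largest falls with ciclopirox among genes with a short peak; each point is a library and each dash a group mean. Treated and control libraries do not overlap in any of these genes. The choice of large called changes favours such a separation, so it is not a further result.

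Of the splicing regulators with a short peak and in the table, 4 of 5 fell with ciclopirox, in a list where 27 of 37 fell. SRSF2 went from 27740, 24951 and 24839 to 12890, 13850 and 13229 normalised counts (-0.95 ± 0.084, limma adjusted p = 8.6e-06), and every treated library was below every control. SRSF5 (-0.46), SRSF11 (-0.55) and PTBP1 (-0.38), the last outside the rule for named genes, also fell, and SRRM2, a scaffold of nuclear speckles, had -0.03. SRSF5 had risen in the knockdown. RBM5 rose (0.46) and GPATCH4 fell (-1.10), each in the direction it had in the knockdown. NOP14 (-0.79) and DDX51 (-0.70) fell, as did all 34 tested genes of the ribosome biogenesis list. Among the ribosomal protein genes RPS14 had 0.00, RPS7 -0.26, RPS19 0.17 and RPL10 0.27, and these were not called. Under other settings RPL10 was called with edgeR, after quantile normalisation, with the replicate block and without DMSO replicate 1, RPS19 after quantile normalisation and without DMSO replicate 1, and RPS7 after centring and with the block.

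Of the 6 amino acid transporters 2 rose, and over the whole list 6 of 17 rose and 4 fell. The 2 were SLC7A5 (0.49 ± 0.098, limma adjusted p = 0.0018), which had fallen in the knockdown, and SLC1A4 (0.49 ± 0.091). Of the replication and repair genes 3 of 6 rose and 1 fell, near the 17 of 35 that rose over the whole list, of which 5 fell. The risers were RAD54L (0.82), a recombination factor, FANCA (0.54), of the Fanconi complex, and, outside the rule, POLE (0.78), a DNA polymerase subunit, and ATR, the checkpoint kinase, fell (-0.73). Of 5 T cell genes 4 fell and 1 rose, and over the whole list 15 of 31 fell and 4 rose. CD2 (-0.93), an adhesion receptor, RAG1, TCF7 (-0.44), a transcription factor of T cell precursors, and LEF1 (-0.34) fell, and CD4 (1.51), a coreceptor that is outside the rule for named genes, rose. Of the 13 chromatin enzymes 2 rose, KDM6B (0.77) among them, and 4 fell, SETD1B (-0.88) among them, and over the whole list 8 of 44 rose and 16 fell. SLC2A3, a glucose transporter of the hypoxia list, rose (1.84), in a list where 23 of 26 rose.

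Genes of the short peaks with the lowest FDR follow. KIFC1 had 6887, 5663 and 5675 normalised counts with DMSO and 7127, 7429 and 6884 with ciclopirox, and was not called (0.24 ± 0.099, limma adjusted p = 0.065). It was called with edgeR, after quantile normalisation and without DMSO replicate 1. MXD1 (0.59), ZDHHC4 (0.37) and CACNB2 (0.73) rose, and TSPOAP1-AS1 (-0.45), SEC31A (-0.31) and ANKLE1 (-0.35) fell. LASP1 rose (0.69). Several calls were fragile. Those of CD244 (-0.29) and ZDHHC4 were lost without DMSO replicate 2, DMSO replicate 3 or ciclopirox replicate 1, and without ciclopirox replicate 3 for CD244 or replicate 2 for ZDHHC4. The ZDHHC4 call was also lost after centring. That of OGA (0.34) was lost after centring and without ciclopirox replicate 2 or 3, and that of ANKLE1 without ciclopirox replicate 1 or 3. Those of KMT2C (-0.57) and SEC13 (-0.38) were lost without ciclopirox replicate 1, that of KIF18B (0.32) without DMSO replicate 3, and that of DHX8 (-0.24) in 10 of 14 settings, each of the 6 libraries left out among them. Calls of TSPOAP1-AS1, SEC31A, SRSF5, SRSF11, ANKLE1, KMT2C, SEC13 and CD244 were lost after quantile normalisation.

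At least 2-fold changes with ciclopirox were held by 132 members that rose (9.09%, background 9.69%) and 32 that fell (2.2%, background 5.56%). Of the 1360 members tested in both experiments, 218 (16.0%) were higher in both, against 11.7% of 10779 genes, and 143 (10.5%) were lower in both, against 13.5%. Opposite calls were fewer: 55 members (4.04%, background 4.02%) were higher in the knockdown and lower with the drug, and 31 (2.28%, background 1.6%) were lower and higher. STRAP, CTU2 and SLC27A4 were lower in both experiments, with -1.13, -1.61 and -1.10 under ciclopirox. MICALL2 (2.36), TRAF1 (2.14), PIK3R6 (1.7) and KAT2B (1.69) were higher in both. SLC7A5 and CD244 were called in opposite directions, although CD244's drug call did not hold in every setting.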

How the data were processed

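RIP, paired-end poly(A)+ RNA-seq and the groups are as the labels' protocols and titles give them. The submitters' processing notes name the tools DESeq, DESeq2 1.32.0, STAR (2.4.1.7 and 2.7.5c) and FastQC 0.11.9 and the builds mm10, hg38 and hg19, and give no roles. The peak list as deposited by the authors gives the place, strand and length of each peak, its enrichment as a ratio, its p-value and FDR, and a score (minus log2 of the FDR). Caller, reference library, pooling and build (not given in the sources used here) are unknown, and coordinates were read as GRCh38. The shRNA table holds RPKM values as deposited by the authors. The ciclopirox table as deposited by the authors holds a signal, counts of reads per gene after division by a factor of each library, beside their log2 fold changes and p-values, which were not used.

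Peaks were set against RefSeq gene spans of GRCh38.p14. Strand and transcript starts were known for 27305 of 59792 spans, and 15843 of 20056 protein-coding ones. Distances run from the middle of a peak. log2(RPKM + 1) and log2(normalised count + 1) were fitted with limma 3.58.1 (empirical Bayes with trend, R 4.3.3) over all 9 and all 6 libraries, on all genes past the filters, with Benjamini-Hochberg adjustment, two-sided. Fold changes on these scales understate changes of low genes. Values were whole reads scaled by 1 factor, so edgeR 4.0.16 and DESeq2 1.42.0 were run on recovered reads (19747 of 19848 genes within 1e-05 reads in the RPKM table, 100 more at 0, and 100% of ciclopirox values within 0.01). The scripts were tested on simulated data.

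The members, the 17 gene lists and the tests were chosen with earlier results of these data known. Named genes were those of the 12 short peaks of lowest FDR, the 6 with most short peaks, the 8 rises and 8 falls with the largest change in each experiment, up to 4 per list, and DHX15. Members are set beside all genes tested, overall and in quartiles of mean expression. Alternatives were scaling, filter, pseudocount, tool, peak limits, replicate block and each library left out. The 2 mouse thymus libraries of the 21 samples were not used here. A gene chosen by the rule is not reported here.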

Additional observations from a re-analysis of the deposited data

Results flagged for a closer look

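In 9 of the named genes the hairpins were called in opposite directions against the shared controls, and the difference between hairpins, shDHX15-2 minus shDHX15-1 on the log2(RPKM + 1) scale, was itself called by limma. It was -0.70 for KDM6B, a histone demethylase (adjusted p = 5.7e-07), -0.49 for LASP1 (6e-07), -0.42 for SFXN3 (4e-05) and -0.31 for SLC1A4 (6.4e-05). It was 0.53 for CD2 (4.6e-06), 0.38 for RPS14 (3.8e-05), 0.33 for PYCR3 (0.00037), 0.24 for SRSF2 (2.6e-06) and 0.18 for RPS19 (0.00013). Such opposite calls were made in 6.4% of all genes with a short peak and 5.47% of all genes tested.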

How the results depend on the processing

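With peaks of an FDR under 1e-05 only, 452 peaks in 495 genes were left. Of those inside exactly 1 protein-coding gene of known strand, 32.4% lay in the last decile. In the knockdown 151 of 426 genes were higher (35.4%) and 88 lower (20.7%). With ciclopirox 128 of 416 were higher (30.8%) and 105 lower (25.2%), against the same backgrounds as above. Counting peaks with at least 1 base in a gene put 21.3% in the first decile. Genes whose peaks were all short numbered 287 higher in the knockdown (median 0.0464) and 266 with ciclopirox (median 0.014). The knockdown median of the members was 0.0287 with DESeq2, 0.0381 with edgeR, 0.0471 at 5 RPKM or more, 0.00907 after centring, 0.0209 after quantile normalisation and 0.095 with a pseudocount of 0.1. The ciclopirox median was -0.00746 after centring and 0.133 after quantile normalisation. Quantile normalisation also reversed mean knockdown changes, to -0.00143 for RNF43, -0.10 for SFXN3 and -0.11 for PYCR3. The cause was not tested.

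With each library left out in turn, the knockdown gave 452 to 477 members higher and 283 to 293 lower (all genes 4008 to 4198 and 2886 to 2962) and medians of 0.0704 to 0.0873. Ciclopirox gave 369 to 549 higher and 251 to 360 lower (all genes 3128 to 4482 and 3319 to 4573) and medians of 0.0552 to 0.1152, the highest without DMSO replicate 1. With the replicate number as a block, 478 members were higher and 296 lower in the knockdown, and 459 and 357 with ciclopirox (all genes 4248, 3048, 4055 and 4381). Same-numbered libraries had correlations of deviations from -0.0006 to 0.0951 in the knockdown and from -0.108 to 0.163 in the drug experiment, so the numbers were not taken to pair the samples. Every listed alternative was run. Limits are the single cell line, the single peak list without replicates, and the depth behind low genes.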
